A study of Mus musculus with 8 samples.

Results

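The germinal centre keeps its B cells in place and moves them between its zones through a small group of receptors, and 9 of their genes were followed here: the chemokine receptors Cxcr4, Cxcr5, Ccr7 and Ccr6, the sphingosine 1-phosphate (S1P) receptors S1pr1 and S1pr2, the G protein alpha subunit Gna13, the oxysterol receptor Gpr183 (EBI2) and the transcription factor Klf2. They were chosen by name and found by Ensembl identifier among the 55421 genes of the deposited count table, 1 row each. All 9 passed the filter on low counts that 12997 genes passed. On mm10 they lie apart, on 7 chromosomes: Cxcr4 at chr1:128588199-128592293, S1pr1 at chr3:115710433-115715072, Klf2 at chr8:72319033-72321656, S1pr2 at chr9:20962361-20976781, Cxcr5 at chr9:44511787-44561877, Ccr7 at chr11:99144196-99155077, Gna13 at chr11:109362831-109401369, Gpr183 at chr14:121952551-121965195 and Ccr6 at chr17:8236043-8257141. The table sums reads over the exons of each gene.

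The study sequenced bulk RNA from splenic germinal centre B cells of C57BL/6 mice aged 8 to 10 weeks, taken 10 days after immunization and isolated with microbeads carrying PNA, a lectin that binds these cells. There were 2 libraries each of Smarca4+/- CC, Smarca4+/+ CC, Smarca4+/- CB and Smarca4+/+ CB cells. CB and CC are read here as centroblasts, the dividing cells of the dark zone, and centrocytes, the cells of the light zone that compete for antigen and T cell help. Smarca4 encodes BRG1, the catalytic subunit of SWI/SNF complexes, which move nucleosomes, and the Smarca4+/- mice carry 1 intact copy, against 2 in Smarca4+/+ mice. How CB and CC cells were separated, how the allele was made, the immunogen and whether libraries came from separate mice are points the labels do not state, so the p-values measure the spread between these libraries.

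As background, each of these receptors reads a gradient in the lymphoid follicle. CXCR4 follows CXCL12 toward the dark zone and CXCR5 follows CXCL13 toward the light zone and the follicle, while S1PR2, signalling through the G protein that GNA13 encodes, holds germinal centre B cells back from the edge. GPR183 follows an oxysterol ligand toward the outer follicle, CCR7 follows CCL19 and CCL21 toward the T zone and CCR6 binds CCL20. S1PR1 leads lymphocytes out into blood and lymph along S1P, and KLF2 is known to activate the S1pr1 gene in lymphocytes.

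The promoters of the genes that fell or rose together in CC cells are shown first, to place the comparison on sequence. The set of RefSeq promoters used here held a start site for 6 of the 9 genes. It held none for Cxcr5, S1pr1 and Ccr7, so the promoters of these genes were not searched. For the other genes the start sites came from that set. Each window is the stretch of 250 bases before that start on mm10 (GRCm38.p6), shortened where an annotated exon began. Capitals mark matches, on either strand, to a KLF core (CACCC) or a MEF2 core (TAAATTTA), 2 motifs that do not overlap each other here. The first 3 windows belong to genes lower in CC cells than in CB cells and the last 2 to genes higher in CC cells. The Ccr6 windows, from 2 RefSeq starts, hold none of the motifs searched and are not printed. They lie at chr1:128592300-128592549 on the minus strand (Cxcr4), chr9:20976794-20977043 on the minus strand (S1pr2), chr11:109362544-109362793 on the plus strand (Gna13), chr8:72318812-72319032 on the plus strand (Klf2) and chr14:121965196-121965443 on the minus strand (Gpr183).
Cxcr4: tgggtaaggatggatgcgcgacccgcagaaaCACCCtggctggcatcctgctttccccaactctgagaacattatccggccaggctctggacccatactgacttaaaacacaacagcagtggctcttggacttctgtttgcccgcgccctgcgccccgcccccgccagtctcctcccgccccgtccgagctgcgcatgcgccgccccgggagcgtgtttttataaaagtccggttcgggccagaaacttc
S1pr2: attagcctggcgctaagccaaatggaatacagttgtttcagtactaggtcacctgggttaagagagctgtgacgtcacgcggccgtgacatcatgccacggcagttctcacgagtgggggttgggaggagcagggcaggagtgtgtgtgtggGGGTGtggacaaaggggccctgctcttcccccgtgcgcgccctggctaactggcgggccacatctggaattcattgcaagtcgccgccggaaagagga
Gna13: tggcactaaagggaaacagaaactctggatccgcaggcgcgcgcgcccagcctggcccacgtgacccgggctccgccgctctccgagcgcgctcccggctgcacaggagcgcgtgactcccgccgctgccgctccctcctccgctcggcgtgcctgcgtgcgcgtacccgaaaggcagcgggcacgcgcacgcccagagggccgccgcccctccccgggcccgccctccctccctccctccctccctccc
Klf2: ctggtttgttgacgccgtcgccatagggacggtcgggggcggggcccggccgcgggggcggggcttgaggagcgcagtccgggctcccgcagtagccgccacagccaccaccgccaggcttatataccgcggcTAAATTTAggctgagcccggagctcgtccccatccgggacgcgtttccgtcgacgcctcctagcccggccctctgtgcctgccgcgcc
Gpr183: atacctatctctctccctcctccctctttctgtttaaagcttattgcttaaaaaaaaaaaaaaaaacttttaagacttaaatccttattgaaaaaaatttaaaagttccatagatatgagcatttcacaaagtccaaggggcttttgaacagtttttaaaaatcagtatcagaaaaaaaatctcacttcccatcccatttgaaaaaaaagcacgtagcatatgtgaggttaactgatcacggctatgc
A forkhead core (GTAAACA), the kind of site FOXO1 binds, was searched too and was in none of the 7 windows of the 6 genes. It was in 3.17% of all 32851 windows of this length in the RefSeq table. The KLF core occurred once in the Cxcr4 and once in the S1pr2 window, and 52.0% of all windows held it. The MEF2 core occurred once, in the Klf2 window, and was in 0.502% of all windows. G and C made up 76.0% of the Gna13 window, 71.5% of the Klf2 window, 61.2% of the Cxcr4 window and 59.2% of the S1pr2 window, against 31.9% of the Gpr183 window and 41.2% and 46.0% of the Ccr6 windows. These matches describe the letters and do not show binding.

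Depth differed sharply between the fractions: the 4 CC libraries held 526353 to 837558 counts in genes, and the 4 CB libraries held 18357578 to 24341805. The mean CB total was 32.7 times the mean CC total. Depth and fraction cannot be told apart, and a gene at 10 counts in a CC library is read with wide counting error. Between 75.9% and 92.6% of the counts from 1 to 10 were even numbers, so counting intervals on sums of few counts are given below on halved counts. Markers of B cells (7 genes, summed) were at 3768 to 4908 CPM (counts scaled to a common library total) in CC libraries and 4615 to 5492 CPM in CB libraries. All 7 dark zone markers were called lower in CC cells over both genotypes, and 7 of 8 light zone markers were called higher; the eighth, Cd40, was at 32.2 to 66.4 CPM in CC libraries and 22.4 to 28.2 CPM in CB libraries (log2 difference 0.88, adjusted p = 0.0524). CC libraries also held more RNA of genes that mark other cells: T cell markers without Lck (14 genes) summed to 345 and 53.4 CPM in Smarca4+/- CC libraries and 645 and 706 CPM in Smarca4+/+ CC libraries, against 6.38 to 8.89 CPM in CB libraries. Lck was left out after its values were seen, since it stood at 108 to 132 CPM in CB libraries. Macrophage markers (13 genes) summed to 1788 to 4114 CPM in CC libraries and 56.1 to 281 CPM in CB libraries. Replicate 2 of Smarca4+/- CC stood closer to the CB libraries than the other CC libraries did: its Pearson correlation with the CB mean was 0.841 across genes, against 0.752 to 0.757.

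Smarca4 itself stood at 244 and 311 CPM in Smarca4+/- CC libraries, against 322 and 316 CPM in Smarca4+/+ CC libraries. It stood at 734 and 702 CPM in Smarca4+/- CB libraries, against 897 and 1002 CPM in Smarca4+/+ CB libraries. In both fractions both heterozygous libraries lay below both wild-type libraries. The log2 difference was -0.20 in CC cells (SE 0.17, adjusted p = 0.584) and -0.40 in CB cells (SE 0.16, adjusted p = 1; edgeR's quasi-likelihood test with Benjamini-Hochberg adjustment over all 12997 genes). Neither passed the threshold of 0.05. Levels here are CPM after scaling with TMM, a method that corrects library totals for composition.

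CC cells differed from CB cells at every one of the 9 genes. Averaged over both genotypes, 6 rose (Cxcr5, S1pr1, Gpr183, Ccr7, Ccr6 and Klf2) and 3 fell (Cxcr4, S1pr2 and Gna13) at an adjusted p under 0.05. Over all genes tested, 6.44% were called higher and 6.97% lower in CC cells. The 9 genes were chosen with earlier results of these data known, so setting them beside all genes is a description and no test of the set. The values of the 4 CC and the 4 CB libraries did not overlap for 8 of the 9 genes, Gpr183 being the exception, and did not overlap for 21.7% of all genes tested. The median log2 difference of the 9 genes was 2.62, beside -0.24 for all genes tested. That median of all genes lay at -0.12 with RLE scaling and -0.08 with scaling to total counts, and the share of called genes that were higher was 48.0% with TMM scaling, 59.7% for RLE scaling and 64.1% when totals were used. Each of the 9 genes kept its direction and its call under both other scalings. In bulk RNA, fewer cells of a type and less RNA per cell cannot be told apart.

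**Figure D1:**
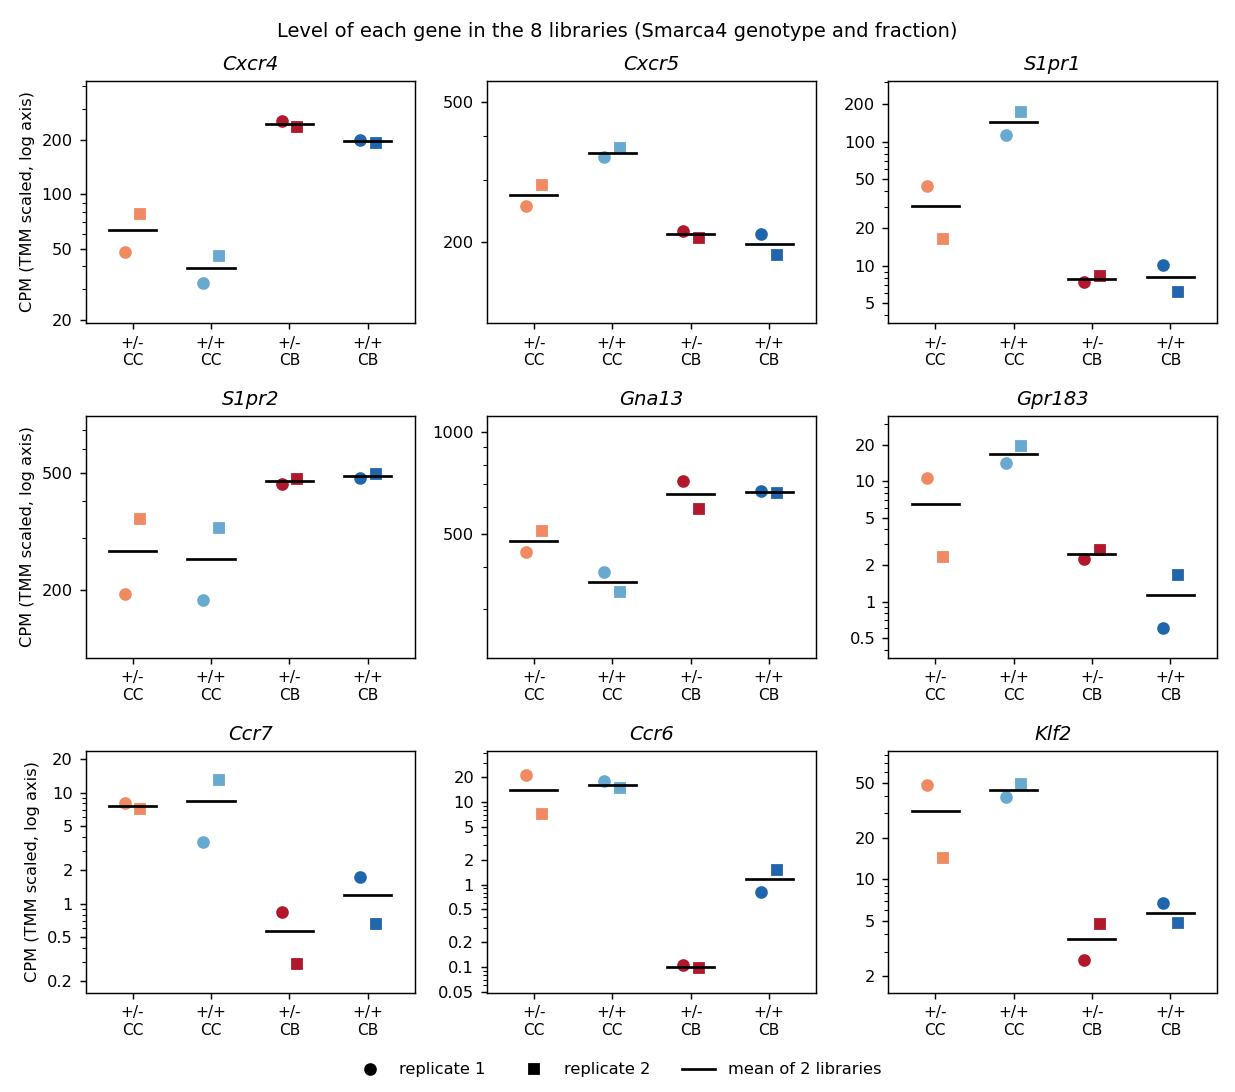
Level of each gene in each of the 8 libraries, in CPM after TMM scaling on a log axis, by Smarca4 genotype (+/- or +/+) and fraction (CC or CB). Circles and squares are replicates 1 and 2 and bars are means of 2 libraries; Cxcr4, S1pr2 and Gna13 are lower in all CC libraries, and the other genes except Gpr183 are higher in all CC libraries than in any CB library.

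Cxcr4, the receptor that draws cells into the dark zone, showed the largest fall. It stood at 48.1 and 78.3 CPM in Smarca4+/- CC libraries and 32.2 and 45.8 CPM in Smarca4+/+ CC libraries, against 257 and 238 CPM in Smarca4+/- CB libraries and 202 and 192 CPM in Smarca4+/+ CB libraries. All CC libraries lay below all CB libraries, and in both fractions the heterozygous libraries lay above the wild-type ones. The log2 difference between CC and CB cells was -2.15 (SE 0.20, adjusted p = 8.45e-05). It was -1.96 (SE 0.27, adjusted p = 0.00379) in Smarca4+/- mice and -2.33 (SE 0.29, adjusted p = 0.00139) in Smarca4+/+ mice. Leaving out replicate 1 or 2 of Smarca4+/- CB ended the call in Smarca4+/- mice, with log2 differences of -1.85 and -1.98. Most of all genes called there with every library in the fit lost their call too.

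Cxcr5, the receptor for CXCL13, moved the other way and less far. Its levels were 254 and 292 CPM in Smarca4+/- CC libraries and 348 and 369 CPM in Smarca4+/+ CC libraries, against 215 and 207 CPM in Smarca4+/- CB libraries and 211 and 184 CPM in Smarca4+/+ CB libraries. The CC libraries were all higher, and the Smarca4+/+ CC pair was the highest. The log2 difference averaged over genotypes was 0.62 (SE 0.13, adjusted p = 0.00795). In Smarca4+/+ mice it was 0.86 (SE 0.18, adjusted p = 0.0160), a call that ended without replicate 1 or 2 of Smarca4+/+ CB (adjusted p = 0.0862 and 0.157) and with only the groups compared (0.0594). In Smarca4+/- mice it was 0.37 (SE 0.18, adjusted p = 0.304), which did not pass except with DESeq2 (0.49, adjusted p = 0.00438).

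The pair of receptors can also be read within a library, free of scaling. Per kb of exon length, the ratio of Cxcr4 to Cxcr5 was 0.353 and 0.497 in Smarca4+/- CC libraries. It was 0.174 and 0.232 in Smarca4+/+ CC libraries. In CB libraries it was 2.20 and 2.12 in Smarca4+/- mice and 1.76 and 1.93 in Smarca4+/+ mice. So the receptor for the dark zone signal had the higher level per length in every CB library and the receptor for the light zone signal in every CC library. The exon lengths are 1808 bases for Cxcr4 and 3332 bases for Cxcr5. In counts not divided by length Cxcr4 was below Cxcr5 in replicate 1 of Smarca4+/+ CB (3977 against 4162). In both fractions the ratios of Smarca4+/- libraries lay above those of Smarca4+/+ libraries; this description has no test, since only 2 libraries stand on each side.

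Ccr7 and Ccr6, receptors known from B cells outside the germinal centre and, for Ccr6, from memory precursors within it, had few counts in every library, 2 to 34. Ccr7 had 6 and 6 counts in Smarca4+/- CC libraries and 2 and 8 in Smarca4+/+ CC libraries, against 16 and 6 in Smarca4+/- CB libraries and 34 and 14 in Smarca4+/+ CB libraries. Scaled for depth these were 8.01, 7.11, 3.57 and 13.1 CPM in CC libraries, in the same order, against 0.843, 0.288, 1.73 and 0.654 CPM in CB libraries. All CC levels were the higher ones, on few counts. The fitted log2 difference was 3.26 (SE 0.86, adjusted p = 0.0267). The ratio of CC to CB levels on summed counts was 13.6 (95% exact interval 4.14 to 40.2) in Smarca4+/- mice and 7.31 (2.18 to 19.6) in Smarca4+/+ mice, intervals that cover counting error only. Within each genotype the difference did not pass (adjusted p = 0.131 in Smarca4+/- and 0.190 in Smarca4+/+). It passed in both with DESeq2 (adjusted p = 0.00302 in Smarca4+/- and 0.0259 in Smarca4+/+), and in Smarca4+/- mice with no low count filter (0.0469). Leaving out any 1 CB library (adjusted p from 0.226 to 0.300) or replicate 2 of Smarca4+/+ CC (adjusted p = 0.113) ended the call over both genotypes, and so did the replicate block (adjusted p = 0.224).

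Ccr6 showed the widest gap between the fractions. It had 16 and 6 counts in Smarca4+/- CC libraries and 10 and 9 in Smarca4+/+ CC libraries, against 2 and 2 in Smarca4+/- CB libraries and 16 and 32 in Smarca4+/+ CB libraries, although CB libraries were far deeper. In CPM these were 21.4, 7.11, 17.9 and 14.7 in CC libraries, against 0.105, 0.0961, 0.813 and 1.49 in CB libraries. The log2 difference over both genotypes was 5.39 (SE 0.76, adjusted p = 0.000802). The ratio of CC to CB levels on summed counts was 137 (95% exact interval 30.0 to 1280) in Smarca4+/- mice, where the CB sum was 4 counts, and 14.6 (6.24 to 31.7) in Smarca4+/+ mice. The fitted difference passed in Smarca4+/- mice (6.97, SE 1.16, adjusted p = 0.00842) and in Smarca4+/+ mice (3.80, SE 0.97, adjusted p = 0.0374). Neither call held when CB libraries were thinned to the mean CC total (adjusted p = 0.132 in Smarca4+/- and 0.156 in Smarca4+/+ mice), and in Smarca4+/+ mice the call also ended under the replicate block (0.245) and with only the groups compared (0.0900). Single libraries decided both calls too: without replicate 1 of Smarca4+/- CC the adjusted p was 0.0692, without either Smarca4+/- CB library it was 0.284 and 0.254, and in Smarca4+/+ mice it ran from 0.0519 to 0.417 without any 1 Smarca4+/+ library or either Smarca4+/- CB library.

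S1pr2 and Gna13, the receptor and G protein that confine germinal centre B cells, fell together but modestly. S1pr2 stood at 194 and 349 CPM in Smarca4+/- CC libraries and 186 and 325 CPM in Smarca4+/+ CC libraries, against 459 and 478 CPM in Smarca4+/- CB libraries and 482 and 495 CPM in Smarca4+/+ CB libraries. The CC libraries spread widely, with replicate 2 the higher in both genotypes, yet none reached the CB range. The log2 difference over both genotypes was -0.86 (SE 0.20, adjusted p = 0.0146). It did not pass within Smarca4+/- mice (-0.79, adjusted p = 0.162) or Smarca4+/+ mice (-0.93, adjusted p = 0.0728). In both genotypes it passed with halved counts (adjusted p = 0.0304 in Smarca4+/- and 0.00862 in Smarca4+/+ mice), with no low count filter (0.00406 and 0.000267, in the same order) and under the replicate block (0.00957 and 0.000965). Without replicate 2 of Smarca4+/- CC it passed in Smarca4+/- mice (-1.30, adjusted p = 0.0357), and in Smarca4+/+ mice it passed without replicate 2 of Smarca4+/+ CC (0.0304) or either Smarca4+/- CC library (0.0325 and 0.0344). The call over both genotypes ended when any 1 of the 4 CB libraries was left out (adjusted p from 0.0573 to 0.0797; log2 differences of -0.80 to -0.83).

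Gna13, which couples S1PR2 to RhoA activation, stood at 442 and 511 CPM in Smarca4+/- CC libraries and 388 and 337 CPM in Smarca4+/+ CC libraries, against 715 and 594 CPM in Smarca4+/- CB libraries and 669 and 659 CPM in Smarca4+/+ CB libraries. The CC libraries were all lower, the wild-type pair lowest. The log2 difference was -0.67 (SE 0.12, adjusted p = 0.00358) over both genotypes. It was -0.88 (SE 0.17, adjusted p = 0.0117) in Smarca4+/+ mice and -0.46 (SE 0.17, adjusted p = 0.173) in Smarca4+/- mice, where it did not pass. The call in Smarca4+/+ mice ended with scaling to total counts (-0.69, adjusted p = 0.0643) and without replicate 1 or 2 of Smarca4+/+ CB (adjusted p = 0.104 and 0.111).

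S1pr1, the egress receptor, was the member with the largest contrast between the genotypes in CC cells. Its counts were 33 and 14 in Smarca4+/- CC libraries and 63 and 106 in Smarca4+/+ CC libraries, against 140 and 172 in Smarca4+/- CB libraries and 199 and 132 in Smarca4+/+ CB libraries. As levels these were 44.1 and 16.6 CPM in Smarca4+/- CC libraries and 113 and 173 CPM in Smarca4+/+ CC libraries, against 7.38 and 8.26 CPM in Smarca4+/- CB libraries and 10.1 and 6.16 CPM in Smarca4+/+ CB libraries. The wild-type CC pair was the highest, the heterozygous CC pair lay between and all CB libraries were lowest. The log2 difference between CC and CB cells was 3.04 (SE 0.34, adjusted p = 0.000239) over both genotypes and 4.14 (SE 0.48, adjusted p = 0.000977) in Smarca4+/+ mice. In Smarca4+/- mice it was 1.94 (SE 0.49, adjusted p = 0.0529), just outside the threshold. There it passed with RLE scaling (adjusted p = 0.0444), with scaling to total counts (0.0361), with DESeq2 (0.00186), with no low count filter (0.00237), with halved counts (0.0144) and under the replicate block (0.0194). It also passed without replicate 2 of Smarca4+/- CC (2.47, adjusted p = 0.0197) and without replicate 1 or 2 of Smarca4+/+ CC (adjusted p = 0.0367 and 0.0425).

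Klf2, the transcription factor known to activate S1pr1, rose with it. Its counts were 36 and 12 in Smarca4+/- CC libraries and 22 and 30 in Smarca4+/+ CC libraries, against 50 and 99 in Smarca4+/- CB libraries and 132 and 103 in Smarca4+/+ CB libraries. As levels these were 48.1 and 14.2 CPM in Smarca4+/- CC libraries and 39.3 and 49.0 CPM in Smarca4+/+ CC libraries, against 2.64 and 4.76 CPM in Smarca4+/- CB libraries and 6.71 and 4.81 CPM in Smarca4+/+ CB libraries. Replicate 2 of Smarca4+/- CC was the lowest CC library for Klf2, as it was for S1pr1. The log2 difference was 2.999 (SE 0.471, adjusted p = 0.00161) over both genotypes, 3.06 (SE 0.67, adjusted p = 0.0287) in Smarca4+/- mice and 2.94 (SE 0.66, adjusted p = 0.0222) in Smarca4+/+ mice. The calls within a genotype ended without any 1 CB library, with adjusted p from 0.0601 to 0.350 in Smarca4+/- mice and from 0.0511 to 0.210 in Smarca4+/+ mice, and without replicate 1 of Smarca4+/- CC in Smarca4+/- mice (1.92, adjusted p = 0.296). With only the groups compared neither passed (adjusted p = 0.0817 in Smarca4+/- and 0.0534 in Smarca4+/+ mice), and with thinned CB counts the difference in Smarca4+/+ mice did not (0.0579).

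Gpr183, which draws activated B cells to the outer follicle and is low in germinal centre cells, rose with the highest adjusted p of the 9. It had 8 and 2 counts in Smarca4+/- CC libraries and 8 and 12 in Smarca4+/+ CC libraries, against 43 and 56 in Smarca4+/- CB libraries and 12 and 36 in Smarca4+/+ CB libraries. In CPM these were 10.7, 2.37, 14.3 and 19.6 in CC libraries, against 2.27, 2.69, 0.610 and 1.68 in CB libraries. Replicate 2 of Smarca4+/- CC fell inside the CB range and the other CC libraries lay above it. The log2 difference was 2.62 (SE 0.71, adjusted p = 0.0316) over both genotypes, 3.87 (SE 1.02, adjusted p = 0.0414) in Smarca4+/+ mice and 1.37 (SE 1.01, adjusted p = 0.499) in Smarca4+/- mice. On summed counts the CC to CB ratio was 2.50 (95% exact interval 0.778 to 6.23) in Smarca4+/- mice and 14.6 (6.24 to 31.7) in Smarca4+/+ mice. The call over both genotypes ended without any 1 CB library (adjusted p from 0.164 to 0.279), without replicate 1 of Smarca4+/- CC (0.200) or replicate 2 of Smarca4+/+ CC (0.0510), and under the replicate block (adjusted p = 0.238). The call in Smarca4+/+ mice ended without any 1 CB library (adjusted p from 0.194 to 0.450), without replicate 2 of Smarca4+/+ CC (0.0872), under the block (0.226) and with only the groups compared (0.105).

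**Figure D2:**
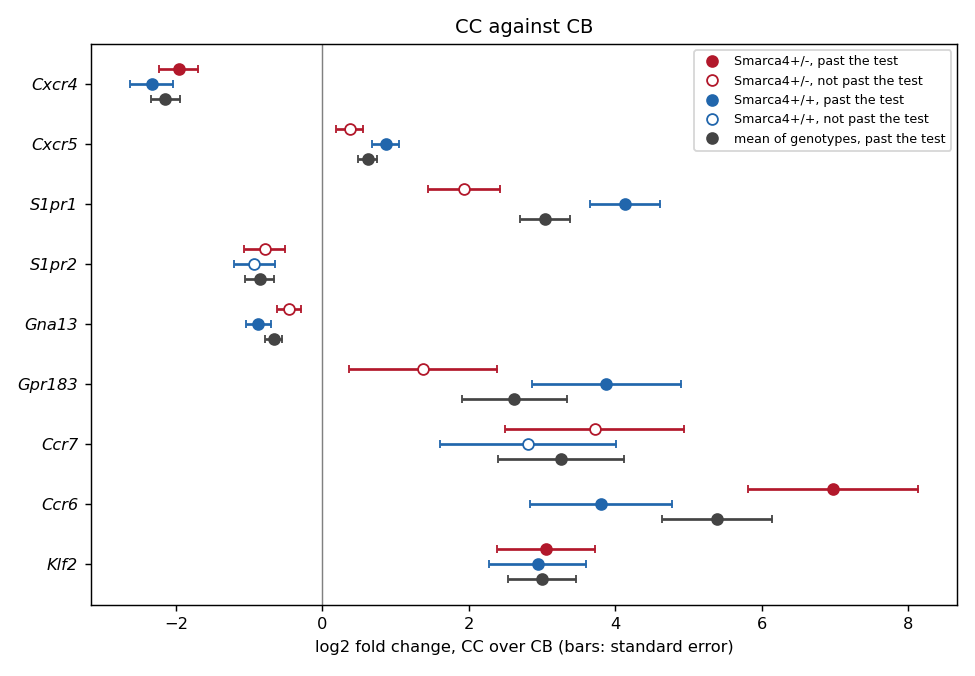
Fitted log2 difference of CC over CB cells for each gene, for Smarca4+/- mice, Smarca4+/+ mice and the mean of both, with bars of 1 SE and filled points for an adjusted p under 0.05. Cxcr4, S1pr2 and Gna13 lie left of 0 in both genotypes, between -2.33 and -0.46, and the other 6 genes lie right of 0.

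Counted within each genotype, 2 of the 9 genes were called higher and 1 lower in CC cells of Smarca4+/- mice, where 2.18% of all genes were called higher and 1.63% lower. In Smarca4+/+ mice 5 were called higher and 2 lower, where 3.59% of all genes were called higher and 3.85% lower. The signs were the same in both genotypes at all 9 genes. Leaving out 1 library leaves 1 in its group and moved the calls of all genes as well as those of the 9. Without either Smarca4+/- CB library fewer members passed in both genotypes, and so did fewer of all genes. The same held in Smarca4+/- mice without replicate 1 of Smarca4+/- CC, and in Smarca4+/+ mice without either Smarca4+/+ CB library. Without replicate 2 of Smarca4+/- CC more members and more of all genes passed in Smarca4+/- mice. The difference between the genotypes was tested directly, as the interaction of genotype and fraction. No member passed it, and 0% of all genes did; 1165 of all 12997 genes and 2 of the 9 (S1pr1 and Ccr6) had an unadjusted p under 0.05, and DESeq2 called 339 genes, none of them a member. The interaction was -2.20 for S1pr1 (SE 0.65, adjusted p = 0.433), 3.17 for Ccr6 (SE 1.38, adjusted p = 0.542), -2.50 for Gpr183 (SE 1.37, adjusted p = 0.593) and -0.49 for Cxcr5 (SE 0.25, adjusted p = 0.577).

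Loss of 1 copy of Smarca4 was then compared within each fraction. In CC cells the values of the Smarca4+/- pair lay wholly above the Smarca4+/+ pair for Cxcr4 and Gna13 and wholly below it for Cxcr5, S1pr1 and Gpr183. That is 5 of 9 genes, beside 32.6% of all genes tested. The dark zone marker sum (7 genes) was also higher, at 2131 and 3138 CPM in Smarca4+/- CC libraries, against 1437 and 1424 CPM in Smarca4+/+ CC libraries. Most of that sum was Mki67, a marker of cycling cells, at 1777 and 2574 CPM in Smarca4+/- CC libraries and 1129 and 1027 CPM in Smarca4+/+ CC libraries. None of the 7 was called between genotypes, the nearest being Mki67 (1.01, SE 0.18, adjusted p = 0.0811) and Aurka, a mitotic kinase (3.04, SE 0.59, adjusted p = 0.0955). Ccnb1 (2.29, SE 0.774) and Cenpf (0.815, SE 0.312) also leaned higher in Smarca4+/- cells. Foxo1 (-0.014), Polh (0.055) and Cdc20 (0.628) differed by less than their standard errors. The part of these 7 markers in the Cxcr4 and Gna13 values was not tested. None of the 9 passed the test, and 0.0231% of all genes did, which is 3 genes, the immunoglobulin heavy chain genes Igha, Ighg2b and Ighv1-42. An unadjusted p under 0.05 was found for 1967 genes, 2 of them members (S1pr1 and Gna13), and DESeq2 called 846 genes, 1 of them a member (S1pr1). The log2 difference was 0.70 for Cxcr4 (SE 0.32, adjusted p = 0.330), -0.40 for Cxcr5 (SE 0.19, adjusted p = 0.343), 0.40 for Gna13 (SE 0.17, adjusted p = 0.311) and -1.40 for Gpr183 (SE 1.04, adjusted p = 0.529). S1pr2 (0.09), Ccr7 (-0.15), Ccr6 (-0.20) and Klf2 (-0.52) had differences smaller than their standard errors.

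S1pr1 was the member nearest to the threshold in this comparison. Its level in Smarca4+/- CC cells was 4.77-fold below that in Smarca4+/+ CC cells (log2 difference -2.25, SE 0.49, unadjusted p = 0.000680, adjusted p = 0.112). It passed with DESeq2 (adjusted p = 0.00233), with no filter on low counts (0.00110) and with halved counts (0.0270), and not with the other alternatives. Without replicate 1 of Smarca4+/- CC the difference was -3.12 (adjusted p = 0.0903) and without replicate 2 it was -1.71 (adjusted p = 0.157). T cells also express S1pr1, Klf2 and Ccr7, and the T cell marker sum moved with S1pr1: it was 345 and 53.4 CPM in Smarca4+/- CC libraries, against 645 and 706 CPM in Smarca4+/+ CC libraries. No T cell marker but Themis was at 0 in any CC library; Themis was at 0 in replicate 2 of Smarca4+/- CC. The part of T cell RNA in the S1pr1 difference was not tested. Markers of naive or memory B cells (8 genes), which also carry S1pr1, summed to 1147 and 817 CPM in Smarca4+/- CC libraries and 1272 and 1339 CPM in Smarca4+/+ CC libraries, and their part was not tested.

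**Figure D3:**
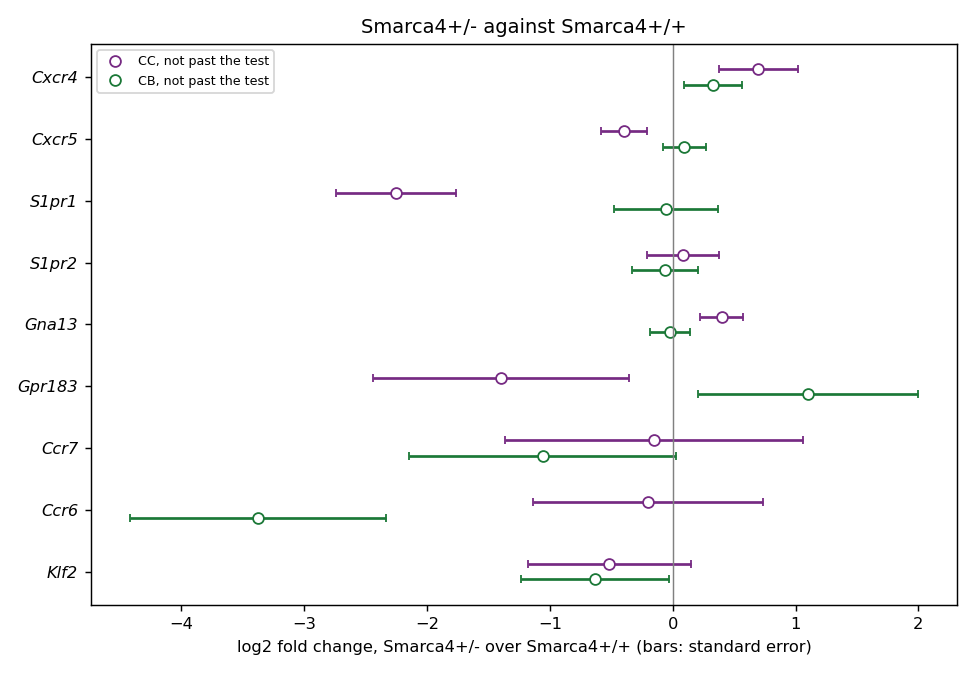
Fitted log2 difference of Smarca4+/- over Smarca4+/+ cells for each gene in CC and in CB cells, with bars of 1 SE. No point passed an adjusted p of 0.05; S1pr1 in CC cells lies at -2.25 and Ccr6 in CB cells at -3.37.

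In CB cells, the deeper fraction, none of the 9 genes passed the test between genotypes. The fit shares 1 spread over all 4 groups, so the scatter of the shallow CC libraries enters this test and makes it a cautious one. With only the CB groups fitted the SE of Cxcr4 was 0.122, and 6 of 13501 genes but no member were called. The Smarca4+/- pair lay wholly above the Smarca4+/+ pair for Cxcr4 and Gpr183 and wholly below it for S1pr2, Ccr6 and Klf2, 5 of 9 in all, beside 32.1% of all genes tested. Over all genes 0% were called; 75 genes, 1 of them a member, had an unadjusted p under 0.05, and DESeq2 called 3 genes and no member. For the genes with deep counts the differences were small: 0.33 for Cxcr4 (SE 0.24), 0.09 for Cxcr5, -0.06 for S1pr2 and -0.02 for Gna13, with an adjusted p of 1 for each. S1pr1 differed by -0.06 (SE 0.43) in CB cells. The 1 member with an unadjusted p under 0.05 was Ccr6 (-3.37, SE 1.04, unadjusted p = 0.00750, adjusted p = 1), at 2 and 2 counts in Smarca4+/- CB libraries and 16 and 32 in Smarca4+/+ CB libraries. The ratio of those summed counts, scaled for depth, was 0.0861 (95% exact interval 0.00986 to 0.347), which covers counting error only.

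The balance of egress and confinement receptors was read within each library too. Per kb, the ratio of S1pr1 to S1pr2 was 0.603 and 0.129 in Smarca4+/- CC libraries and 1.59 and 1.40 in Smarca4+/+ CC libraries, against 0.0422 and 0.0454 in Smarca4+/- CB libraries and 0.0551 and 0.0327 in Smarca4+/+ CB libraries. Only in the Smarca4+/+ CC pair did the egress receptor have the higher level per length. That order rests on the exon lengths, 3046 bases for S1pr1 and 7971 bases for S1pr2. In counts not divided by length S1pr2 was above S1pr1 in every library. The S1pr2 counts were 104 and 199 in Smarca4+/+ CC libraries, against 63 and 106 for S1pr1. The ratio of Gpr183 to S1pr2 was 0.161 and 0.0234 in Smarca4+/- CC libraries and 0.225 and 0.173 in Smarca4+/+ CC libraries, against 0.0138 and 0.0157 in Smarca4+/- CB libraries and 0.00364 and 0.00951 in Smarca4+/+ CB libraries. Every CC ratio was above every CB ratio for both pairs of genes. The ratio of Ccr7 to Cxcr5 was 0.0575 and 0.0444 in Smarca4+/- CC libraries and 0.0215 and 0.0632 in Smarca4+/+ CC libraries, against 0.00681 and 0.00255 in Smarca4+/- CB libraries and 0.0140 and 0.00621 in Smarca4+/+ CB libraries. Cxcr5 thus kept the far higher level per length in every library.

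**Figure D4:**
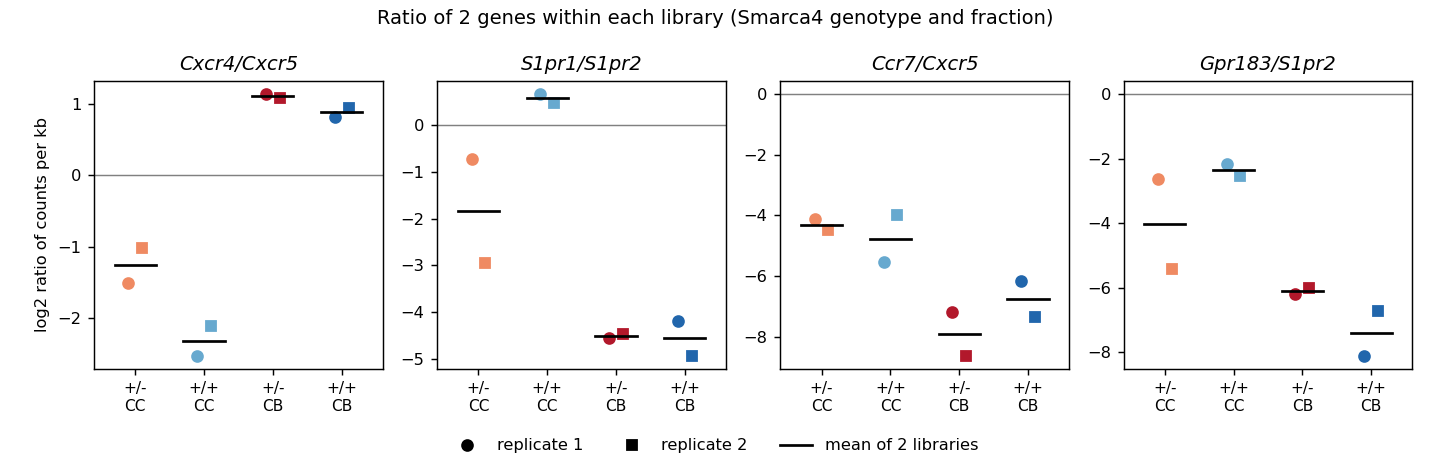
Log2 ratio per kb of exon length for 4 pairs of genes within each library, by Smarca4 genotype and fraction. Circles and squares are replicates 1 and 2 and bars are means of 2 libraries. On the linear scale Cxcr4 to Cxcr5 is at most 0.497 in CC libraries and at least 1.76 in CB libraries, and the other 3 ratios are higher in every CC library than in any CB library.

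Ordered by level per kb, CC and CB cells put different receptors on top. In CC cells Cxcr5 led, at 81.8 ± 8.05 CPM per kb in Smarca4+/- and 108 ± 4.46 in Smarca4+/+ cells (SD, n = 2 each), followed by Gna13 at 74.2 ± 7.60 and 56.4 ± 5.62. Cxcr5 and Gna13 overlapped in the Smarca4+/- pair and not in the Smarca4+/+ pair. S1pr1 was the sixth in Smarca4+/- CC cells at 9.96 ± 6.38 CPM per kb and the third in Smarca4+/+ CC cells at 46.9 ± 14.1. In both CC groups the genes from the third to the sixth place overlapped with their neighbours, and Gpr183, Ccr7 and Ccr6 held the last 3 places. In CB cells Cxcr4 led, at 137 ± 7.32 CPM per kb in Smarca4+/- and 109 ± 3.87 in Smarca4+/+ cells, above Gna13 at 102 ± 13.3 and 103 ± 1.05 without overlap. Cxcr5 and S1pr2 came next at 63.3 ± 1.79 and 58.7 ± 1.66 in Smarca4+/- CB cells, and they overlapped in Smarca4+/+ CB cells at 59.3 ± 5.89 and 61.2 ± 1.14. The other 5 genes averaged at most 3.12 CPM per kb in both CB groups, and S1pr1 and Klf2 overlapped in each.

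Genes that work beside these 9 were counted by list. Over all genes tested, 6.44% were called higher and 6.97% lower between CC and CB cells, and each list count is to be read beside these shares. Of 12 tested genes among 19 other migration receptors, 4 rose and none fell in CC cells over both genotypes; the median log2 difference was 1.47. They were Gpr132 (4.73, SE 0.77, adjusted p = 0.00201), a receptor of lymphocytes and macrophages, the S1P receptor S1pr3 (0.82, SE 0.21, adjusted p = 0.0217), the ADP receptor P2ry12 (3.02, SE 0.87, adjusted p = 0.0397) and the lysophosphatidic acid receptor Lpar6 (3.13, SE 0.92, adjusted p = 0.0435). Gpr132 stood at 5.34 and 7.11 CPM in Smarca4+/- CC libraries and 46.5 and 49.0 CPM in Smarca4+/+ CC libraries, against 0.211 to 2.44 CPM in CB libraries. Its genotype difference in CC cells was -2.93 (SE 1.03, adjusted p = 0.227) and did not pass. P2ry12 and Lpar6 had few counts in CC libraries. Those of P2ry12 were 12 and 2 in Smarca4+/- CC and 2 and 6 in Smarca4+/+ CC libraries. Those of Lpar6 were 16 and 0 in Smarca4+/- CC and 4 and 10 in Smarca4+/+ CC libraries. With 0 counts, replicate 2 of Smarca4+/- CC lay below all CB libraries for Lpar6.

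Of 27 tested genes of receptor signalling and its regulators, 2 rose and 2 fell, with a median of -0.11. That is near the share over all genes (6.44% higher and 6.97% lower), so the 4 genes are named as single genes only. Arrb1, which encodes a beta-arrestin that uncouples receptors, rose by 2.60 on the log2 scale (SE 0.31, adjusted p = 0.000339), and Cd69, whose protein removes S1PR1 from the surface, rose by 1.92 (SE 0.56, adjusted p = 0.0431). Cd69 stood at 53.4 and 9.49 CPM in Smarca4+/- CC libraries and 42.9 and 13.1 CPM in Smarca4+/+ CC libraries. In CB libraries it was at 5.75 to 9.96 CPM, so replicate 2 of Smarca4+/- CC lay inside the CB range. The receptor kinases Grk2 (-0.87, SE 0.11, adjusted p = 0.000490) and Grk6 (-0.53, SE 0.14, adjusted p = 0.0310) fell. Of 8 tested genes of 17 for ligands and their metabolism 2 rose, with a median of 0.63: the transporters Abcc1 (1.13, SE 0.21, adjusted p = 0.00448) and Mfsd2b (4.27, SE 0.98, adjusted p = 0.0135), which exports S1P from red cells and platelets. Mfsd2b had no counts in replicate 2 of Smarca4+/- CC. Erythroid markers (10 genes) summed to 532 and 145 CPM in Smarca4+/- CC libraries and 715 and 808 CPM in Smarca4+/+ CC libraries, against 7.78 to 17.6 CPM in CB libraries, and their part in the Mfsd2b rise was not tested.

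All 14 adhesion genes were tested, and 7 rose and 1 fell, with a median of 0.74. Vcam1, among those that rose, is also on the macrophage marker list. It stood at 358 to 801 CPM in CC libraries and 6.81 to 55.2 CPM in CB libraries. The part of other cells in the rise of adhesion genes was not tested. Selplg, the selectin ligand PSGL-1, rose by 3.01 (SE 0.48, adjusted p = 0.00173) and the integrin beta chain Itgb2 by 0.96 (SE 0.16, adjusted p = 0.00215), while Itgb3 fell (-1.56, SE 0.30, adjusted p = 0.00517). The integrin chain Itga5 was called higher too (adjusted p = 0.00151), with no counts in 3 of the 4 CB libraries. Selplg stood at 64.1 and 7.11 CPM in Smarca4+/- CC libraries and 100.1 and 85.0 CPM in Smarca4+/+ CC libraries, against 5.96 to 7.52 CPM in CB libraries, so that replicate 2 of Smarca4+/- CC lay at the CB level. Of 13 transcription factors placed near Klf2 by family or by germinal centre function, 2 rose and 4 fell, with a median of -0.39. Zeb2 (2.92, SE 0.24, adjusted p = 4.1e-05) and Klf3, a KLF family repressor (4.43, SE 0.55, adjusted p = 0.000379), rose. Bach2 (-1.54, SE 0.19, adjusted p = 0.000366) and Foxo1 (-0.98, SE 0.13, adjusted p = 0.000622), a factor of the dark zone known to activate Cxcr4, fell. Klf3 stood at 80.1 and 16.6 CPM in Smarca4+/- CC libraries and 55.4 and 121 CPM in Smarca4+/+ CC libraries, against 1.54 to 4.34 CPM in CB libraries, and like Klf2 it was lowest in replicate 2 of Smarca4+/- CC. No gene of these 5 lists passed in either genotype comparison or in the interaction.

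The genes of most similar pattern over the 8 libraries were picked by Pearson's r of log2 CPM among the 9075 tested genes that averaged 5 CPM or more. For Cxcr4 they were Tomm22 (0.9947), Hmces (0.9937) and Naa35 (0.9935). For S1pr1 they were Shisa5 (0.9903), Esyt1 (0.9900) and Dph5 (0.9896), and Shisa5 stood at 236 and 126 CPM in Smarca4+/- CC libraries and 334 and 445 CPM in Smarca4+/+ CC libraries, against 106 to 124 CPM in CB libraries. For S1pr2 they were Rbm15b (0.9972), Dlg5 (0.9964) and Ubn1 (0.9960). These values are a description: all points share the depth gap between CC and CB libraries.

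The marker lists show what else moved with the 9 genes between CC and CB cells. In CC cells 14 of 15 T cell markers, 13 of 13 macrophage markers, 9 of 9 tested erythroid markers and 7 of 8 markers of naive or memory B cells rose, and 3 of 7 germinal centre markers fell. Over all genes tested 6.44% rose and 6.97% fell. Mitochondrial genes took 2.24% to 5.86% of counts in CC libraries, lowest in replicate 2 of Smarca4+/- CC, against 0.699% to 1.40% in CB libraries, and the part of RNA or cell quality in these differences was not tested. Markers of naive or memory B cells summed to 817 to 1339 CPM in CC libraries and 302 to 414 CPM in CB libraries, and germinal centre markers (7 genes) to 913 to 1373 CPM in CC libraries and 1797 to 1850 CPM in CB libraries. In replicate 2 of Smarca4+/- CC the T cell, macrophage, erythroid and naive or memory B sums were the lowest of the CC libraries and the germinal centre sum the highest. S1pr1, Klf2, Gpr183 and Ccr6 had their lowest CC levels there. Cxcr4 (78.3 CPM), S1pr2 (349 CPM) and Gna13 (511 CPM) had their highest CC levels in the same library. S1pr1, Klf2, Ccr7, Ccr6 and Gpr183 are also expressed by naive B cells or T cells, and the part of other cells in their rise was not tested. With replicate 2 of Smarca4+/- CC left out, all 9 genes kept their calls between CC and CB cells over both genotypes.

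**Figure D5:**
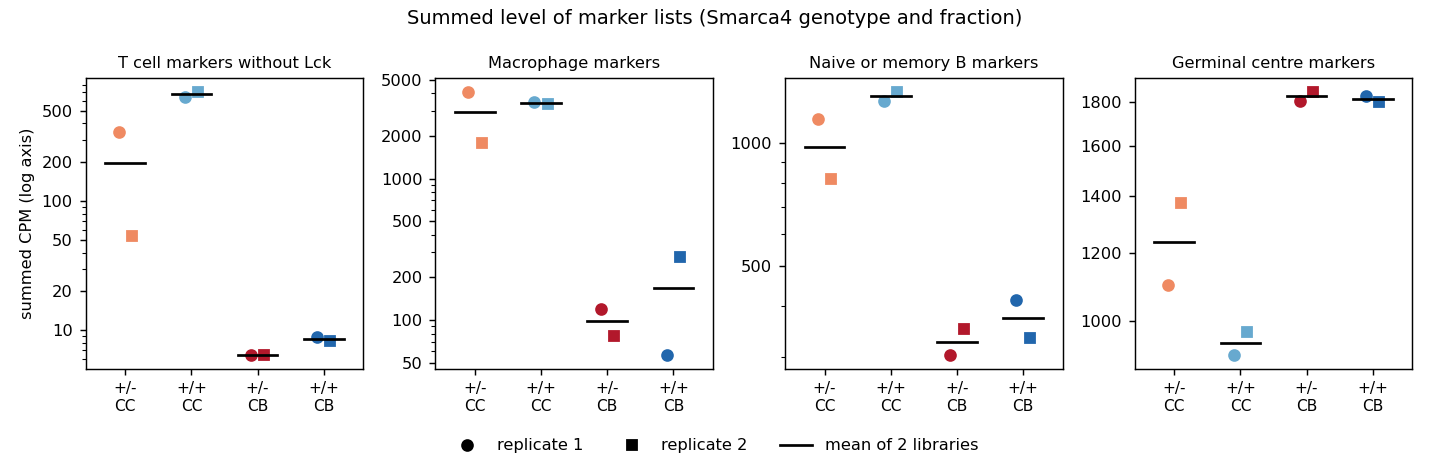
Summed level of the T cell markers without Lck, macrophage markers, naive or memory B cell markers and germinal centre markers in each library, in CPM on log axes, by Smarca4 genotype and fraction; circles and squares are replicates 1 and 2 and bars are means of 2 libraries. The first 3 sums are higher in every CC library and the germinal centre sum is lower, and replicate 2 of Smarca4+/- CC is the CC library nearest to the CB libraries in all 4.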

How the data were processed

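Whole-number counts per gene were deposited by the authors for 8 libraries in 1 table; per the submitters' processing notes FastQC, STAR, featureCounts (Subread) and R 4.2.1 were used on mm10, with no strand setting named there. Another column deposited by the authors holds the exon length of each gene, used here as other information to express levels per kb. Of 55421 identifiers, 55154 had a symbol in GENCODE M21. Libraries were grouped by title. Column totals of 526353 to 24341805 counts set the precision.

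Counts were fitted as deposited with edgeR 4.0.16 in R 4.3.3 (filterByExpr with a minimum count of 10 and a minimum total of 15, TMM scaling, robust quasi-likelihood F test, 4 group means over 8 libraries, 4 residual degrees of freedom). Benjamini-Hochberg adjustment ran over all 12997 genes, with a threshold of 0.05. SE is the log2 difference divided by the root of F. CPM are from the same scaling. Ratios of 2 genes used counts plus 0.5. The fit between CC and CB cells was run on simulated counts with large changes at genes above a set mean level. Smaller changes and genes of lower level were not covered. Alternatives were DESeq2 1.42.0, other scalings, other filters, thinned CB counts, the compared groups only, the replicate block, leaving out each library, and halved counts, which were added after seeing that low counts are mostly even.

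The 9 genes and all lists were chosen with earlier results of these data known. The named genes are the 9 members, Smarca4, up to 4 genes a list with the smallest p between CC and CB cells among those called, and the 3 genes most like Cxcr4, S1pr1 and S1pr2. The labels do not say whether equal replicate numbers mark libraries of a shared mouse or day. Deviations of same-numbered libraries correlated at 0.053 in Smarca4+/- and 0.010 in Smarca4+/+ mice. These values cannot decide it, since deviations of the shallow CC libraries hold much counting error.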

Additional observations from a re-analysis of the deposited data

How the results depend on the processing

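Between CC and CB cells over both genotypes, the members tested kept their direction under the alternatives run: 9 were tested except with at least 50 counts in 2 libraries (6, all called) and with thinned CB counts (7, all called). Where all 9 were tested, the fewest calls were 6, without any 1 CB library. Counts of genes called moved by over 1.5 times as follows; the cause was not tested, except that stricter filters and thinning test fewer genes and leaving out a library or a group leaves fewer samples. With DESeq2 the counts were 2806 over both genotypes, 1487 in Smarca4+/- mice, 2167 in Smarca4+/+ mice, 846 for genotype in CC cells, 3 for genotype in CB cells and 339 for the interaction, against 1743, 495, 968, 3, 0 and 0. With no low count filter they were 1142 in Smarca4+/- mice, 1651 in Smarca4+/+ mice, 323 for genotype in CC cells, 13 for genotype in CB cells and 46 for the interaction. With CB libraries thinned to the mean CC total of 657641 counts they were 1064, 307, 606 and, for the interaction, 1. With halved counts they were 1026 in Smarca4+/- mice, 49 for genotype in CC cells and 3 for the interaction. With at least 50 counts in 2 libraries 316 were called in Smarca4+/- mice. With only the groups compared the counts were 253 in Smarca4+/- mice, 270 in Smarca4+/+ mice and 6 for genotype in CB cells. Scaling to total counts called 5 genes for genotype in CC cells and 1 in the interaction, and RLE scaling 2 in the interaction.

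Of the 9 members, 1 (S1pr1) was called for genotype in CC cells with DESeq2, no filter or halved counts. In Smarca4+/- mice 6 were called between CC and CB cells with DESeq2 and with no filter and 5 with halved counts, against 3. In Smarca4+/+ mice 4 of 7 tested were called with thinned CB counts and 3 with only the groups compared, against 7. For genotype in CB cells, signs turned for differences near 0: with total count scaling S1pr2 was at 0.009 and Gna13 at 0.058, and with thinned counts Cxcr5 was at -0.012, S1pr1 at 0.70 and S1pr2 at 0.058. Under the replicate block the interaction called 10 genes and no member, Klf2 stood at -0.023 in it, and 5 members passed in Smarca4+/- mice (Cxcr4, S1pr1, S1pr2, Ccr6 and Klf2). Since the labels do not say whether the numbers pair libraries, the block is a description.

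Leaving out 1 library in turn, genes called ranged from 622 to 2276 over both genotypes, 1 to 957 in Smarca4+/- mice, 222 to 1388 in Smarca4+/+ mice, 0 to 43 for genotype in CC cells, 0 to 1 for genotype in CB cells and 0 to 1 for the interaction. Members called ranged from 0 to 5 in Smarca4+/- mice and from 2 to 8 in Smarca4+/+ mice. The signs that turned were for genotype in CB cells S1pr1 (-0.36 to 0.33) and Gna13 (-0.16 to 0.11), for genotype in CC cells S1pr2 (-0.42 to 0.54), Ccr7 (-0.80 to 1.07), Ccr6 (-1.20 to 0.38) and Klf2 (-1.64 to 0.11), in Smarca4+/- mice Gpr183 (-0.084 to 2.08), and in the interaction Cxcr4 (-0.05 to 0.66), S1pr2 (-0.36 to 0.60) and Klf2 (-1.01 to 0.74). None of these was called. Depth limits Ccr7, Ccr6 and Gpr183 most: on library totals without TMM scaling, 3 counts equal 3.58 to 5.70 CPM in CC libraries, where these genes had 2 to 16 counts.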

Other observations

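Further marker lists were counted between CC and CB cells over both genotypes, with edgeR's quasi-likelihood test. Over all genes tested 6.44% rose and 6.97% fell. Of 5 tested plasma cell markers 2 rose and 1 fell, of 5 tested markers of stroma and endothelium 3 rose, and of 2 tested natural killer cell markers 1 rose. The 1 tested dendritic cell marker, of 6 listed, was not called (log2 difference 0.51). No gene of these lists passed in either genotype comparison or in the interaction.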
